A study of Mus musculus with 6 samples.

Results

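The nuclei described are DAM-gene-positive microglia of the rd10 mouse retina, where DAM stands for disease-associated microglia. They were taken from single-nucleus RNA-seq as nuclei with over 500 unique molecular identifiers (UMIs, the count of captured RNA molecules), at least 200 genes and under 5% mitochondrial UMIs. A nucleus counted as microglial when at least 3 of 10 microglial identity genes had a UMI (Inpp5d, Csf1r, Cx3cr1, C1qa, C1qb, P2ry12, Tmem119, Dock8, Ikzf1 and Fyb). It counted as DAM-gene-positive when it also had a UMI of at least 1 of 7 disease-associated genes, called gate genes here: Itgax, Gpnmb, Lpl, Igf1, Spp1, Atp6v0d2 and Cst7. A nucleus with a UMI of Slc17a6, Gad1, Trpm1, Abca8a or Top2a, which mark neurons, Muller glia and dividing cells, was left out. This gave 510 DAM-gene-positive nuclei among 1058 microglia and 56205 nuclei in all, 0.907% of the nuclei, and left 548 DAM-gene-negative microglia with no UMI of any gate gene.

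Every retina came from rd10 mice (strain B6.CXB1-Pde6b-rd10/J), which carry a mutation of Pde6b, the rod phosphodiesterase subunit, and lose their rods early in life. The retinas were collected at postnatal day 20, after an injection into the vitreous at postnatal day 18 of 20 ng recombinant IL-27, an immune-regulating cytokine, or of saline. Each group had 3 libraries, saline replicates 1, 2 and 6 and IL-27 replicates 4, 5 and 10, and both groups carried the mutation, so no retina without degeneration was compared. The number of mice behind a library is not given in the sources used here, and p-values measure the spread between these libraries. The files held 36678332 to 48260748 UMIs per library, and the DAM-gene-positive nuclei 149862 to 430805 of them per library. Any pair of libraries shared 18 to 30 cell barcodes, and 0 of the 510 nuclei had a barcode found in another library.

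Microglia are the resident macrophages of the retina. In degenerating nervous tissue some of them enter the DAM state, known for more lysosomal, lipid-handling and phagocytic genes and for lower levels of the genes of resting (homeostatic) microglia. Trem2, a receptor for lipids and cell debris, and its signalling adaptor Tyrobp are known to be needed for the full state in the brain. Among the gate genes, Gpnmb encodes a membrane glycoprotein of lysosomes and melanosomes, Spp1 encodes the secreted protein osteopontin, Igf1 encodes insulin-like growth factor 1, and Itgax encodes the integrin CD11c. Lpl encodes lipoprotein lipase, Atp6v0d2 a subunit of the vacuolar proton pump that acidifies lysosomes, and Cst7 cystatin F, an inhibitor of lysosomal cysteine proteases.

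The promoters of Gpnmb and Itgax, the most and the fourth most often detected gate genes, are shown because the rule treats both as marks of one state while their nuclei differed, as described below. Each run holds 250 bases before and 20 after the transcript start from RefSeq (GRCm38.p6), read 5′ to 3′ on the gene's strand, with capitals for TGANTCA, the binding motif of AP-1 transcription factors. The Gpnmb run is chr6:49036268-49036537 on the plus strand with the motif starting 9 bases after the start, and the Itgax run is chr7:128129300-128129569 on the plus strand with the motif starting 56 bases before it. A run of 30 bases shortly after the start was in 0 of 5 annotated transcripts of Gpnmb and in 2 of 4 of Itgax. The Gpnmb position therefore rests on the RefSeq start alone.
Gpnmb: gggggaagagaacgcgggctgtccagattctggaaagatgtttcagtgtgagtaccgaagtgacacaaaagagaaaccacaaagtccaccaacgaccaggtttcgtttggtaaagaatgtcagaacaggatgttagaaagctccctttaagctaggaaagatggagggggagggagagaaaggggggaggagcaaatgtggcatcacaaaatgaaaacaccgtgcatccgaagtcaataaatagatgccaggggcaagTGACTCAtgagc
Itgax: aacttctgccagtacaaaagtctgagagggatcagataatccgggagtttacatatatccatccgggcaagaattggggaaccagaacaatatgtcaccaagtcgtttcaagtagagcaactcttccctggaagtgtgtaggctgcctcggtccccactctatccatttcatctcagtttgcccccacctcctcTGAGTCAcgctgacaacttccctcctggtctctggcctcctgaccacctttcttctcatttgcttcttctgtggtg
TGANTCA was searched on both strands, which it reads alike, in windows of 300 bases, 250 before and 50 after each start. Of the 7 gate genes, 5 had a promoter in the table, and 4 of their 6 promoters (66.7%), those of Gpnmb, Itgax, Igf1 and Cst7, held the motif, against 7.81% of all 32851 promoters. A match is a description of letters and not a measured site.

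The DAM-gene-positive share of microglia was close to even in every library and overlapped between the treatments. It was 43.1% (35.9 to 50.5%, 95% interval by the exact Clopper-Pearson method), 49.4% (41.2 to 57.5%) and 47.5% (38.4 to 56.8%) in saline replicates 1, 2 and 6, from 188, 154 and 122 microglia. In IL-27 replicates 4, 5 and 10 it was 41.8% (34.8 to 49.1%), 55.0% (49.1 to 60.8%) and 49.5% (39.7 to 59.4%), from 196, 291 and 107 microglia. The groups overlapped, at 46.7 ± 3.22% with saline and 48.8 ± 6.60% with IL-27 (SD, n = 3 libraries), a difference of 2.13 percentage points (exact permutation test, two-sided p = 0.7, where 3 against 3 libraries cannot go below 0.1). Without IL-27 replicate 5, which held the most microglia, the difference was -0.974 points. As a share of all nuclei the DAM-gene-positive microglia were 0.819, 0.857 and 0.616% with saline and 0.873, 1.73 and 0.564% with IL-27 (exact permutation p = 0.6). Intervals cover counting error only, and in such shares fewer nuclei of a type and less RNA of a gate gene per nucleus cannot be told apart.

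Depth and free RNA bear on this share, since a single UMI made a nucleus positive. The median depth was 2385 UMIs in DAM-gene-positive and 1988.5 in DAM-gene-negative nuclei. After thinning every nucleus to 1000 UMIs and dropping 14 saline and 30 IL-27 nuclei of lower depth, 35.3% of microglia held a gate gene, at 30.2, 32.0 and 39.8% with saline and 30.5, 43.3 and 31.3% with IL-27 (exact permutation p = 0.8). Rods, which are not known to express these genes, held any of the 7 in 9.14% of 6485 nuclei at a median depth of 1268 UMIs against 2191.5 in microglia, and in 6.42% after thinning. Spp1 had a UMI in 3.92% of rods, Gpnmb in 2.50%, Igf1 in 1.77%, Lpl in 1.03% and Itgax in 0.0617%. After thinning, Spp1 was in 2.82% of rods and 9.76% of microglia, and Lpl in 0.607 and 2.47%. Igf1 was then in 1.17 and 11.5%, and Gpnmb in 1.76 and 20.4%. Part of the Spp1, Lpl, Igf1 and Gpnmb detections may therefore be background, and its part in the share was not tested. Scrublet called 6.47% of DAM-gene-positive and 7.48% of DAM-gene-negative nuclei doublets.

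At the edge of the identity rule, the 88 nuclei with exactly 3 identity genes had 2309 CPM of Gpnmb and 521 CPM of Fabp5 at a median of 1937 UMIs, where CPM is the UMIs of a gene scaled to the same UMI total in each group of nuclei. The 219 nuclei just outside it, with 2 identity genes, had 262 CPM of Gpnmb and 135 CPM of Fabp5 at a median of 4180 UMIs. The 422 DAM-gene-positive nuclei with 4 or more identity genes had 1021 CPM of Gpnmb and 338 CPM of Fabp5 at a median of 2506.5 UMIs. Both levels lay below those of the nuclei with exactly 3. A further 425 nuclei met the identity and gate rules but held an excluded gene, with 279 CPM of Gpnmb at a median of 5386 UMIs. The identity genes most often detected in the DAM-gene-positive nuclei were Fyb (85.1%), Inpp5d (83.3%) and Dock8 (79.6%), followed by Ikzf1 (67.5%), Cx3cr1 (53.5%) and Csf1r (50.4%). P2ry12 had a UMI in 34.3% and Tmem119 in 3.92%, against 46.5 and 5.84% of DAM-gene-negative nuclei. Markers of other macrophages and monocytes summed to 1058 to 2096 CPM over the libraries in DAM-gene-positive and 1304 to 2030.4 CPM in DAM-gene-negative nuclei. Pf4 and Cbr2, which mark border macrophages, were at 0 in the DAM-gene-positive nuclei of all 6 libraries, and lymphocyte markers summed to 0 to 197 CPM. Of the 20 listed macrophage and monocyte markers, 2 were at 0 in the DAM-gene-negative nuclei as well. Mrc1, another macrophage marker, had 61 UMIs in 22 DAM-gene-positive nuclei and 38 UMIs in 19 DAM-gene-negative nuclei, so such cells are not excluded by the rule.

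Gpnmb (ENSMUSG00000029816) was the leading gate gene, with a UMI in 281 of the 510 nuclei (55.1%). Its level in the DAM-gene-positive nuclei was 993, 1069 and 1133 CPM in saline replicates 1, 2 and 6 and 969, 1559.9 and 1181 CPM in IL-27 replicates 4, 5 and 10. IL-27 replicate 5 stood above the others, and the groups overlapped. Igf1 (ENSMUSG00000020053) had a UMI in 205 nuclei (40.2%) and lay at 295, 358 and 441 CPM with saline and 359, 436 and 247 CPM with IL-27, in the same order of replicates, so that both groups covered much of one range. Spp1 (ENSMUSG00000029304) had a UMI in 153 nuclei (30.0%) and lay at 220.1, 313 and 331 CPM with saline and 234, 221 and 567 CPM with IL-27. IL-27 replicate 10 alone exceeded the saline libraries for Spp1. Itgax (ENSMUSG00000030789) was found in 84 nuclei (16.5%) at 112, 65.0 and 49.0 CPM with saline and 64.6, 58.0 and 60.1 CPM with IL-27, with saline replicate 1 the highest.

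The other 3 gate genes were rare. Lpl (ENSMUSG00000015568) had a UMI in 51 nuclei (10.0%) and Atp6v0d2 (ENSMUSG00000028238) in 23 (4.51%), and Cst7 (ENSMUSG00000068129) was seen in 10 (1.96%). Over the 6 libraries Lpl was at 54.7 ± 20.5 CPM, Atp6v0d2 at 52.3 ± 40.1 CPM and Cst7 at 8.32 ± 4.73 CPM (SD), all levels that the rule itself set above the 0 of the DAM-gene-negative nuclei. Atp6v0d2 was at 84.3, 40.6 and 104 CPM with saline and 68.6, 9.28 and 6.67 CPM with IL-27, with IL-27 replicates 5 and 10 the lowest. These levels are a description, since the rule chose the nuclei by them.

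**Figure D1:**
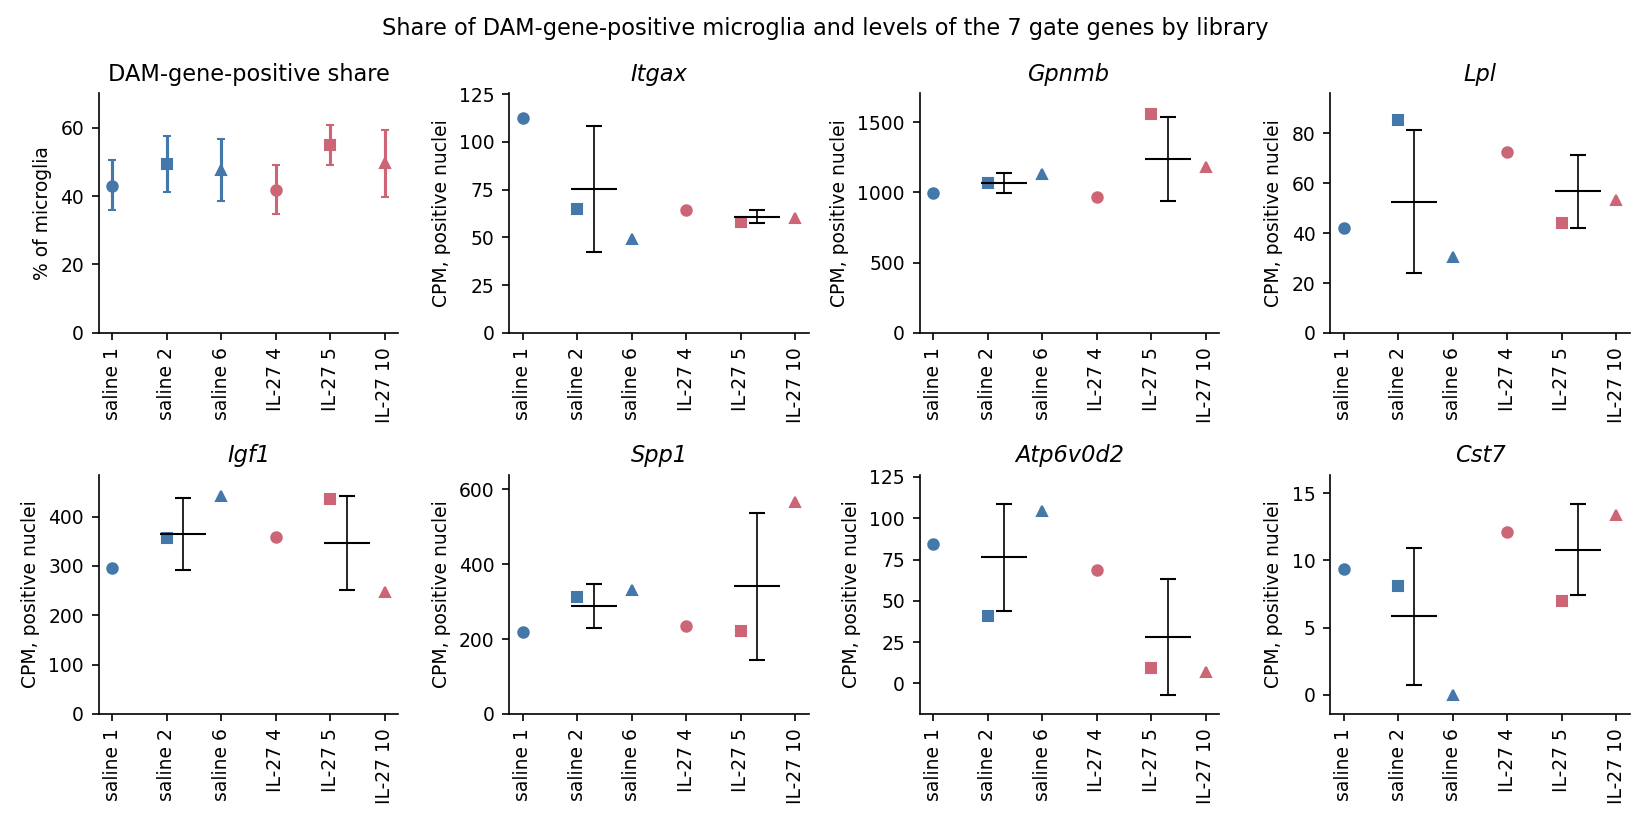
The first panel plots the DAM-gene-positive share of microglia (% with 95% exact intervals) in each of the 6 libraries, and the other panels the level of each gate gene in those nuclei (CPM), with the mean and SD of each group of 3 in black. Saline is blue and IL-27 is red. The shares run from 41.8 to 55.0% with overlapping intervals, Gpnmb is highest in IL-27 replicate 5 (1560 CPM), and Spp1 in IL-27 replicate 10 (567 CPM).

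Most of the DAM-gene-positive nuclei held a single gate gene. Of the 510, 307 held 1, 127 held 2, 61 held 3, 12 held 4 and 3 held 5, so 203 (39.8%) held 2 or more. The median depth rose with the number, from 2237 UMIs with 1 to 2552 with 2 and 3144 with 3 or more. Gpnmb ran with Atp6v0d2 in 22 of the 23 nuclei that held Atp6v0d2, with Spp1 in 97 of 153, and with Igf1 in 102 of 205. Itgax stood apart: 15 of its 84 nuclei (17.9%) held Gpnmb, and 62 held no other gate gene.

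Each gate gene was then tested in a way its own UMIs did not fix, by comparing microglia with a UMI of any of the other 6 gate genes with microglia lacking all 6, with the library as a block. Gpnmb was 2.19 higher on the log2 scale (SE 0.21, edgeR quasi-likelihood test, adjusted p 1.58e-04 over 4860 genes) in the 397 nuclei with another gate gene. Its levels there were 769, 1067 and 1071 CPM with saline and 887, 1385 and 1220.5 CPM with IL-27, against 247, 117 and 195 CPM with saline and 156, 566 and 199 CPM with IL-27 in the 661 nuclei without. Every library moved the same way, and the lowest value with another gate gene lay above the highest value without one. Igf1 was 2.02 higher (SE 0.16, edgeR adjusted p 9.60e-06), at 319 ± 83.3 against 76.2 ± 21.6 CPM (SD, n = 6 libraries). Spp1 was 2.82 higher (SE 0.27, edgeR adjusted p 3.93e-05), at 286 ± 98.2 against 41.7 ± 40.2 CPM. Both rose in all 6 libraries. With nuclei matched for UMIs these differences were 1.97 for Gpnmb, 1.64 for Igf1 and 2.80 for Spp1.

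The 4 rarer gate genes fell under the filter on low counts and were tested without it, an alternative chosen after the data were seen. Dropping the filter made p-values far smaller at a like effect. Gpnmb gave 2.16 with an edgeR adjusted p of 4.12e-49 without it, against 2.19 and 1.58e-04 with it. The p-values of fits without the filter, here and below, are therefore not on the scale of the filtered ones. Atp6v0d2 (log2FC 5.37, edgeR adjusted p 6.05e-14) and Lpl (1.64, adjusted p 0.00176) were higher with another gate gene, and Cst7 gave 0.80 (adjusted p 0.932). Itgax went the other way. It was lower in microglia that held another gate gene, with a log2FC of -1.21 (SE 0.36, edgeR adjusted p 0.0205), at 19.2 ± 9.64 against 44.3 ± 12.6 CPM, and lower in 5 of 6 libraries. Itgax had a UMI in 22 of 448 nuclei with another gate gene (4.91%) and in 62 of 610 nuclei without (10.2%).

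Beyond the gate genes, the DAM-gene-positive nuclei carried higher levels of DAM, lysosomal and lipid-handling genes than the DAM-gene-negative microglia of the same libraries. Of 5306 genes tested with the library as a block, 406 (7.65%) passed an edgeR adjusted p under 0.05, of which 216 (4.07%) were higher and 190 (3.58%) lower. By level alone, 449 genes (8.46%) were higher and 243 (4.58%) lower in all 6 libraries, and the median log2 fold change (log2FC) over all genes tested was -0.01. The gate genes and the other genes of the rule are not counted as results of this comparison. Of 30 tested members of a list of other DAM genes, 16 rose and 0 fell, with a median log2FC of 0.70. This list came from published accounts of the DAM state, as the gate genes do.

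Fabp5 (ENSMUSG00000027533), a fatty-acid-binding protein, had the smallest adjusted p. In the DAM-gene-positive nuclei it was at 347, 252 and 453 CPM in saline replicates 1, 2 and 6 and 343, 427 and 327 CPM in IL-27 replicates 4, 5 and 10, and in the DAM-gene-negative nuclei at 70.2, 38.1 and 50.8 CPM with saline and 26.3, 50.01 and 85.7 CPM with IL-27. The ranges did not overlap, and the difference was 2.74 on the log2 scale (SE 0.20, edgeR adjusted p 6.38e-06). Lgals3 (ENSMUSG00000050335), the galectin that binds damaged lysosomes, was at 169, 215 and 239 CPM with saline and 174, 385 and 427 CPM with IL-27, against 36.9, 29.6 and 79.1 CPM with saline and 45.0, 33.3 and 61.2 CPM with IL-27 (log2FC 2.45, SE 0.23, edgeR adjusted p 1.78e-05). It was highest in IL-27 replicates 5 and 10. Lyz2, lysozyme, was at 469 ± 57.5 against 151 ± 21.4 CPM (SD, n = 6 libraries, log2FC 1.61, SE 0.13, edgeR adjusted p 7.46e-06). Fth1 and Ftl1, the 2 ferritin chains that store iron, rose together, at 1661 ± 639 against 656 ± 120.3 CPM and 1042 ± 335 against 359 ± 58.7 CPM. The tetraspanins Cd63 (1.13) and Cd9 (0.94), the lysosomal glycoprotein Cd68 (1.29) and the receptors Cd300lf (0.83), Lilrb4a (1.01) and Colec12 (1.86) also rose, as did Timp2 (0.998), an inhibitor of matrix proteases, and the myosins Myo5a (0.67) and Myo1e (0.94, all log2FC). Colec12 lay at the threshold (edgeR adjusted p 0.04997). In saline replicate 6 it was lower in the DAM-gene-positive nuclei, at 42.9 against 107 CPM.

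Tyrobp and Trem2, and with them Apoe and Axl, moved less. Tyrobp was at 192 ± 38.2 against 127 ± 33.4 CPM (log2FC 0.52, SE 0.16, edgeR adjusted p 0.0589) and higher in all 6 libraries, short of the threshold. Trem2 was at 173 ± 67.5 against 119 ± 15.1 CPM (log2FC 0.40, SE 0.18, edgeR adjusted p 0.213), and its level in saline replicate 6, 306 CPM, stood above the 126 to 167 CPM of the other libraries. Apoe, the lipid carrier, was the most abundant gene of the list in both sets of microglia, at 3957 ± 955 against 2984 ± 436 CPM (log2FC 0.34, SE 0.14, edgeR adjusted p 0.169). Axl, a receptor for dying cells, gave -0.14 (edgeR adjusted p 0.602). None of these 4 passed.

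**Figure D2:**
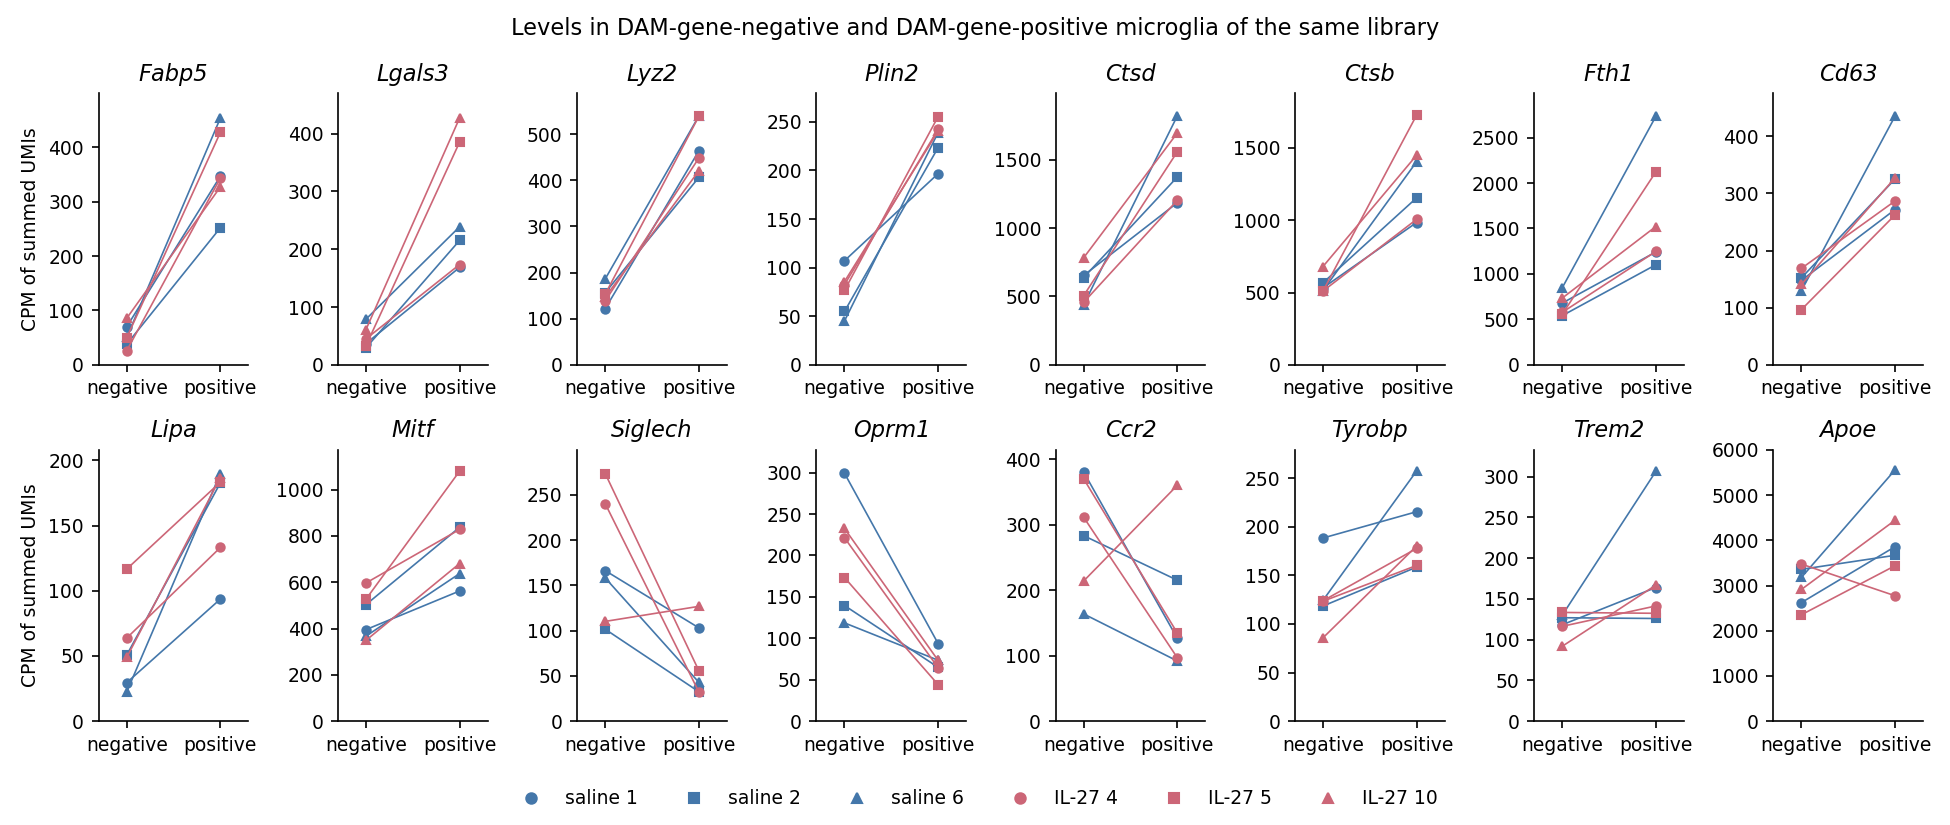
Each panel plots the level of a gene (CPM of summed UMIs) in DAM-gene-negative and DAM-gene-positive microglia, with a line joining the values of each of the 6 libraries. Fabp5, Lgals3, Lyz2, Plin2, Ctsd, Ctsb, Fth1, Cd63, Lipa and Mitf lie higher in the DAM-gene-positive nuclei of all 6 libraries and Oprm1 lies lower in all 6, Siglech and Ccr2 lie lower in 5 of 6, and Tyrobp, Trem2 and Apoe, which did not pass the test, lie higher in 6, 4 and 5 of 6.

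Lysosomal genes were another large group. Of 41 tested genes of the lysosome and its proton pump, 15 rose and 1 fell, with a median log2FC of 0.43, and their summed level was 13357 to 16318 CPM over the libraries in DAM-gene-positive and 9573 to 11237 CPM in DAM-gene-negative nuclei, without overlap. Ctsd (ENSMUSG00000007891), the aspartic protease cathepsin D, was at 1185, 1373 and 1819.6 CPM with saline and 1203, 1558 and 1695 CPM with IL-27, against 654, 639 and 441 CPM with saline and 458, 507 and 783 CPM with IL-27 (log2FC 1.30, SE 0.15, edgeR adjusted p 1.12e-04). Every DAM-gene-positive value exceeded every DAM-gene-negative value. The cysteine proteases Ctsb (1.16) and Ctsz (0.73), the hydrolases Lipa (1.44), Hexa (0.78) and Glb1 (0.78), and the sphingolipid activator Psap (0.76) rose by these log2FC values. So did Grn (0.62), which encodes progranulin, the membrane protein Lamp1 (0.83) and the cholesterol transporter Npc1 (0.57). The proton pump subunits Atp6v1a (0.88), Atp6v0d1 (0.74) and Atp6v1c1 (0.59) rose as well. Glb1, Npc1 and Atp6v1c1 lay near the threshold, at edgeR adjusted p values of 0.0452, 0.0318 and 0.0494. Ctsc, the protease that activates other proteases, fell, at 376 ± 42.6 against 560.3 ± 98.3 CPM (log2FC -0.62, SE 0.13, edgeR adjusted p 0.00988), and Ctss (-0.13), which microglia express highly at rest, did not pass.

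Mitf, one of the transcription factors that bind lysosomal promoters, was at 562, 837 and 637 CPM with saline and 828, 1079 and 681 CPM with IL-27, against 395, 503 and 367 CPM with saline and 597, 527 and 349 CPM with IL-27 (log2FC 0.71, SE 0.12, edgeR adjusted p 0.00202). It rose in each library, though the ranges overlapped. Its relatives Tfeb and Tfe3 gave log2FC values of 0.27 and 0.27 and did not pass (edgeR adjusted p 0.528 and 0.703). This family binds the letters CACGTG, which stand 2 times in the Ctsd promoter, starting 245 and 98 bases before the start. The run is chr7:142387808-142388077 (GRCm38.p6, RefSeq) on the minus strand, 5′ to 3′ on the gene's strand with the motif in capitals, and is shown because Ctsd was the most abundant protease that rose.
Ctsd: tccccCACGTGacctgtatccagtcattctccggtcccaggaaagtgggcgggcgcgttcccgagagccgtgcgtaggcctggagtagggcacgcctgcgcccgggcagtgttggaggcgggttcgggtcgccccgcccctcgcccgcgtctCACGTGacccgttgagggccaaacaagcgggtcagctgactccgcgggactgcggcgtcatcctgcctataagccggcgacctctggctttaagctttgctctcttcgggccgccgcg
Searched on both strands, CACGTG was in 5 of 15 promoters (33.3%) of the 12 risen lysosomal genes that had one in the table, those of Atp6v0d1, Atp6v1a, Ctsd, Glb1 and Lamp1. It was in 7.15% of all promoters, in 9.80% of those of tested genes, and in 12.1 and 6.22% of the promoters of genes higher and lower in DAM-gene-positive nuclei. Lysosomal genes that did not rise were not searched as a group, so whether the motif goes with rising among lysosomal genes was not tested. The letters are described here, and binding was not measured.

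Of 15 tested lipid-handling genes, 7 rose and 0 fell, with a median log2FC of 0.48. Plin2 (ENSMUSG00000028494), which coats lipid droplets, was at 197, 223 and 239 CPM with saline and 242, 255 and 240.2 CPM with IL-27, against 107, 55.0 and 45.2 CPM with saline and 82.5, 76.7 and 85.7 CPM with IL-27 (log2FC 1.58, SE 0.18, edgeR adjusted p 1.27e-04), without overlap. Lrp1 (0.94), an uptake receptor for lipoproteins, Soat1 (0.90), which esterifies cholesterol for storage, and Abca1 (0.67), which exports cholesterol, all rose. Mylip (0.58), which degrades the LDL receptor, rose too, as did Lipa and Fabp5 of the groups above. Acaca, of fatty acid synthesis, gave -0.24 and did not pass (edgeR adjusted p 0.524). The partners of the secreted gate gene products moved little. Igf1r, the receptor of Igf1, gave 0.14 and the osteopontin receptor Cd44 gave 0.57, neither past the threshold, and Igf2r, which carries enzymes to lysosomes, rose (log2FC 1.61, SE 0.30, edgeR adjusted p 0.00448), the 1 of 9 tested partners to do so.

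Among genes outside these lists, Myof (log2FC 2.08), a membrane repair protein, the scaffold Iqgap1 (1.17) and the raft protein Rftn1 (1.24) rose. Fnip2 (1.51), which takes part in nutrient sensing at the lysosome, was at 930.5 ± 139 against 316 ± 59.8 CPM. Stra6l had the largest rise of the genes named, 3.19, from a low level of 7.39 ± 4.87 CPM to 75.3 ± 30.4 CPM. The kinase Sgk1 (1.54), the scaffold Sash1 (1.04) and the long noncoding RNA Neat1 (1.39), which stays in the nucleus, completed the 15 risen genes with the smallest adjusted p, all higher in 6 of 6 libraries.

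Homeostatic genes were mostly below their level in DAM-gene-negative nuclei, but few passed. Of 29 tested, 0 rose and 2 fell, with a median log2FC of -0.24 and 25 values below 0. Siglech (ENSMUSG00000051504), a sialic-acid-binding receptor of resting microglia, was at 103, 32.5 and 42.9 CPM with saline and 32.3, 55.7 and 127 CPM with IL-27, against 166, 102 and 158 CPM with saline and 240.1, 273 and 110.2 CPM with IL-27 (log2FC -1.58, SE 0.30, edgeR adjusted p 0.00479). It fell in 5 libraries and not in IL-27 replicate 10. Cd33, a related receptor, was at 106 ± 29.9 against 154 ± 47.5 CPM (log2FC -0.62, SE 0.18, edgeR adjusted p 0.0486). Gpr34 (-0.62), Selplg (-0.68) and Olfml3 (-0.77) lay at edgeR adjusted p values of 0.0701, 0.0664 and 0.0698. The transcription factors Mef2a (-0.00) and Sall1 (-0.21) and the receptor Tgfbr1 (-0.06), which maintain the resting state, gave values near 0. Among nuclei with under 10% of UMIs from genes of other retinal cells, 15 of 29 homeostatic genes fell, with a median log2FC of -0.42, where 273 of all 4320 genes tested fell (6.32%). Genes of other lists fell there too.

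Phagocytosis genes gave 2 risen of 29 tested, Cd68 and Plek (0.65), and 1 fallen, Pld4 (-0.50, edgeR adjusted p 0.0345), with Mertk, the receptor for dying photoreceptor debris, at 1011 ± 97.5 against 781 ± 92.6 CPM (adjusted p 0.107). Of the inflammatory mediators, 2 of 19 rose and 2 fell. The chemokine Ccl4 rose (log2FC 1.55, SE 0.37, edgeR adjusted p 0.0186), highest in IL-27 replicate 10 at 227 CPM, along with the TNF receptor Tnfrsf1b (0.68), while the prostaglandin synthase Ptgs1 (-0.75) fell. None of 41 interferon-response genes, 9 genes of IL-27 signalling or 18 of glycolysis and hypoxia passed the edgeR test with all nuclei. Among nuclei with under 10% of UMIs from genes of other retinal cells, 12 of 41 interferon-response genes fell, with a median log2FC of -0.35, as did 1 of 9 genes of IL-27 signalling, while 1 of 17 inflammatory mediators rose and 6 fell. Il27ra, the IL-27 receptor, was listed at 0 in the DAM-gene-positive nuclei of all 3 saline libraries and at 4.04, 2.32 and 6.67 CPM in IL-27 replicates 4, 5 and 10, which is 1 UMI in each. Its partner Il6st was at 92.1 ± 21.4 against 109.5 ± 30.8 CPM. Of 4 tested cell-division genes, Ncapg2 rose (log2FC 1.46, SE 0.23, edgeR adjusted p 0.00139), and Mki67, which marks cycling cells, was too low to test at 14.5 CPM. The rule had already left out nuclei with a UMI of Top2a, a gene of dividing cells, so this level does not measure division among microglia.

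Markers of other macrophages and monocytes went both ways. Of 11 tested, 1 rose and 2 fell, with a median log2FC of -0.37. Fn1, fibronectin, rose (log2FC 0.89, SE 0.24, edgeR adjusted p 0.0331). Ccr2 (ENSMUSG00000049103), the chemokine receptor of incoming monocytes, was at 126, 215 and 91.9 CPM with saline and 96.9, 135 and 360.3 CPM with IL-27, against 380.5, 283 and 164 CPM with saline and 311, 370.1 and 214 CPM with IL-27 (log2FC -0.93, SE 0.25, edgeR adjusted p 0.0317), lower in 5 libraries and higher in IL-27 replicate 10. Clec12a, a lectin of monocytes, fell too (log2FC -1.04, SE 0.29, edgeR adjusted p 0.0389). The antigen-presenting genes of MHC class II, H2-Aa, H2-Ab1, H2-Eb1 and Cd74, gave -0.42, -0.37, -0.76 and -0.71 and did not pass. With the 6 gate genes other than Itgax as the rule, chosen after the data were seen, 2 of these 11 genes rose and 6 fell, with a median log2FC of -1.23, where 5.45% of 5013 genes tested rose and 4.57% fell. Ccr2 had a UMI in 18.2% of DAM-gene-positive and 30.7% of DAM-gene-negative nuclei. Another limit added after the data were seen kept nuclei with under 3 macrophage or lymphocyte marker genes. It left 33 to 89 DAM-gene-positive nuclei per library, from 53 to 160, and 36 to 73 DAM-gene-negative nuclei, from 54 to 131. With it 181 of 3796 genes tested rose and 171 fell. Of the 216 higher and 190 lower genes reported above, 148 and 116 were called again.

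The genes lower in the DAM-gene-positive nuclei were in large part genes of other retinal cells. Of the 190, 137 (72.1%) had a higher level in nuclei without any identity gene than in microglia, against 12 of the 216 higher genes (5.56%) and 1618 of all 5306 (30.5%). Among the 15 with the smallest adjusted p were the neuronal genes Kcnip4 (-1.78), Gria1 (-2.34), Grm8 (-1.17), Asic2 (-1.34), Cntn6 (-2.31), Kctd8 (-1.15) and Khdrbs2 (-2.12), and Tafa1 (-2.34), Nebl (-1.59), Schip1 (-2.05), Eml5 (-1.16) and Thrb (-1.16, all log2FC). RNA of other cells made up 4.82% of the UMIs of DAM-gene-positive and 7.67% of those of DAM-gene-negative nuclei, and 36 and 70 nuclei had 10% or more. With those nuclei left out, an alternative added after the data were seen, 265 genes (6.13%) rose and 273 fell, and 184 of the 216 higher but 60 of the 190 lower genes were called again, with 87 of the 190 no longer tested and 21 of the opposite sign. Dlg2 was one of these, at -1.26 with all nuclei and 0.16 without them. Rod markers summed to 764 to 1988 CPM in DAM-gene-positive and 667 to 2383 CPM in DAM-gene-negative nuclei, and 0 of 7 tested passed.

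A few of the lower genes were higher in both sets of microglia than in nuclei without identity genes, where Oprm1 was at 33.1 CPM and Ighm at 0.452 CPM. Oprm1 (ENSMUSG00000000766), the mu opioid receptor, was at 93.7, 65.0 and 73.5 CPM with saline and 64.6, 44.1 and 73.4 CPM with IL-27, against 299, 139.6 and 119 CPM with saline and 221, 173 and 233 CPM with IL-27 (log2FC -1.57, SE 0.18, edgeR adjusted p 1.27e-04). Every DAM-gene-positive value lay below every DAM-gene-negative value. Ighm, the immunoglobulin heavy chain of B cells, was at 21.6 ± 9.46 against 72.4 ± 30.7 CPM (log2FC -1.86, SE 0.30, edgeR adjusted p 0.00190). The counts of calls moved with the choices made. DESeq2 called 99 higher and 71 lower, of which 99 and 66 were also edgeR calls, and matching the nuclei for UMIs gave 149 and 187. Without Scrublet doublets 148 rose and 66 fell. Leaving out 1 library at a time gave 140 to 211 higher, the lowest without IL-27 replicate 5, and 109 to 192 lower, with 109 without saline replicate 1 and 116 without saline replicate 2.

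Levels of several genes varied with the number of gate genes in a nucleus, given here as a description. Fabp5 was at 53.5 ± 21.5 CPM with 0 gate genes, 194 ± 111 CPM with 1, 418 ± 113 CPM with 2 and 773 ± 368 CPM with 3 or more (SD, n = 6 libraries). Ctsd went from 580.1 ± 134 to 961 ± 178, 1699.9 ± 639.6 and 2728 ± 907 CPM in the same order, and Plin2 from 75.4 ± 22.3 to 173 ± 18.6, 246 ± 92.3 and 409 ± 125 CPM. Siglech went down from 175 ± 69.1 to 101 ± 65.1 and 27.6 ± 43.3 CPM, and had no UMI in the 76 nuclei with 3 or more. P2ry12, a receptor for nucleotides and one of the 10 identity genes by which the rule chose the nuclei, went from 332 ± 56.8 to 97.1 ± 69.4 CPM, and Ccr2 from 287 ± 85.7 to 18.3 ± 24.99 CPM. Apoe (2984 ± 436 to 5283 ± 2244 CPM) and Trem2 (119 ± 15.1 to 214 ± 126 CPM) varied less, and for both genes the libraries at the 2 ends overlapped. In IL-27 replicate 4 Apoe went down, from 3474 to 2189 CPM, and in saline replicate 2 from 3358 to 3050 CPM. The nuclei with 3 or more gate genes numbered 12, 14 and 9 with saline and 12, 25 and 4 with IL-27, and were deeper than the rest.

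**Figure D3:**
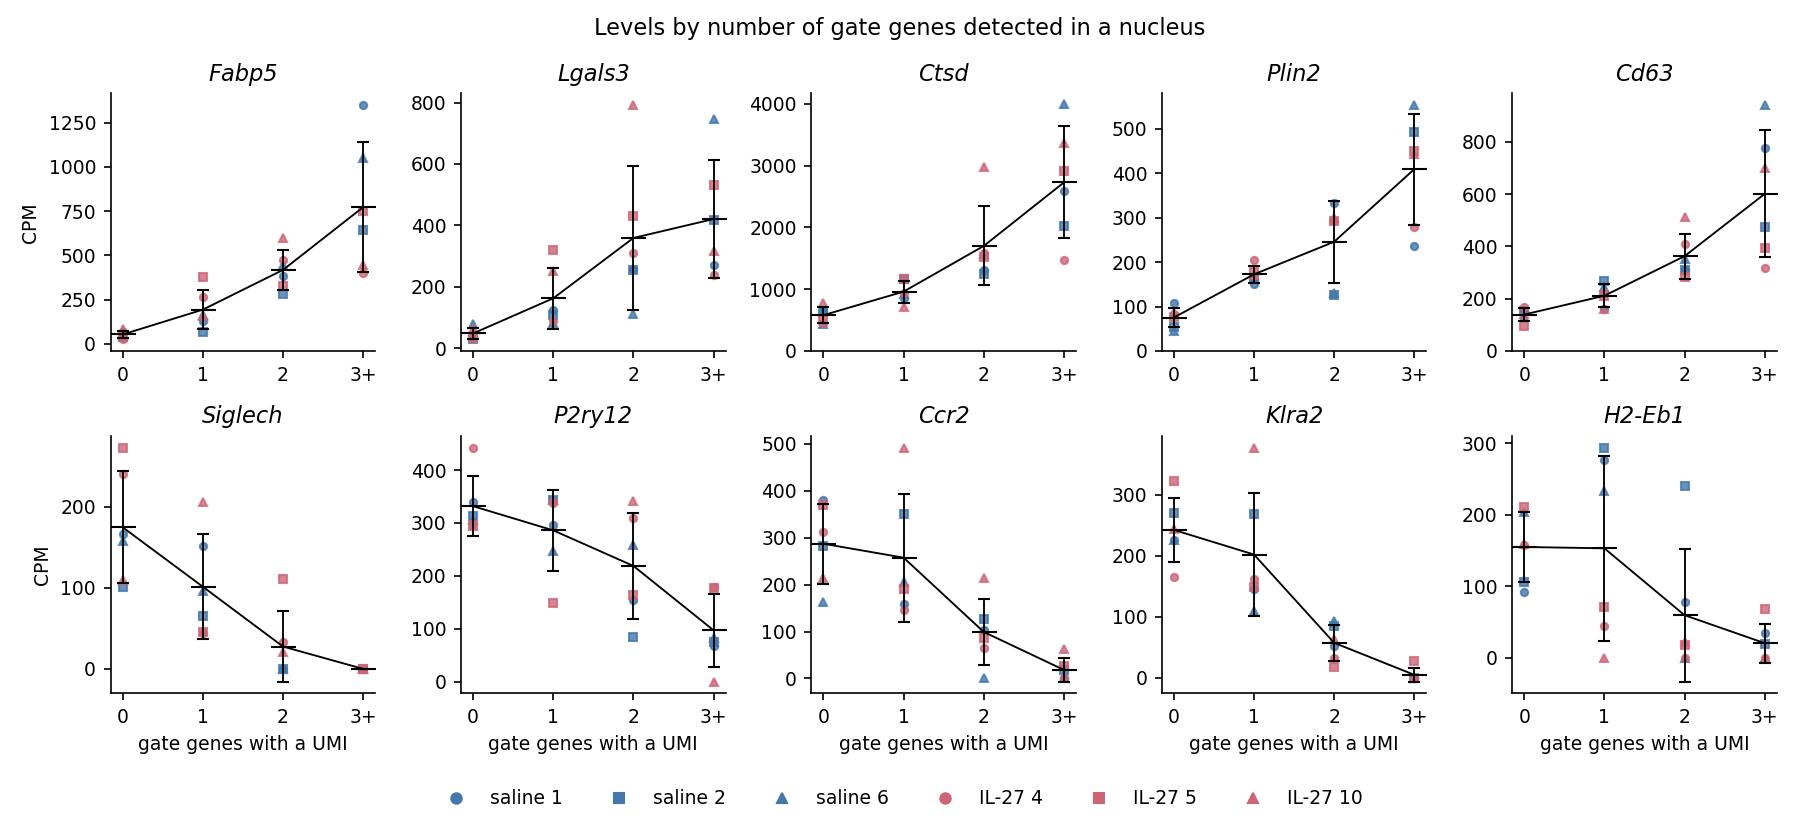
Each panel plots the level of a gene (CPM of summed UMIs) in microglia with 0, 1, 2, or 3 or more gate genes, with 1 point per library and the mean and SD of the 6 libraries in black. The upper row (Fabp5, Lgals3, Ctsd, Plin2 and Cd63) climbs from left to right, Fabp5 from 53.5 to 773 CPM, and in the lower row Siglech, P2ry12 (an identity gene of the rule), Ccr2 and Klra2 descend.

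Nuclei picked by Itgax alone differed from those picked by Gpnmb alone, in genes that were chosen for this comparison after their values were seen and so carry no test. The 62 nuclei with Itgax as their only gate gene came from all libraries (15, 8 and 6 with saline, 10, 16 and 7 with IL-27), as did the 113 with Gpnmb only (17, 10 and 12 with saline, 12, 51 and 11 with IL-27), of which 51 were from IL-27 replicate 5. Pooled over libraries, Fabp5 was at 51.1 CPM (22.1 to 101) with Itgax only and 378 CPM (309 to 458) with Gpnmb only (95% exact Poisson intervals, counting error only). By treatment, the Gpnmb-only level of Fabp5 was 236 CPM with saline and 451 CPM with IL-27, and the Itgax-only level 68.9 and 35.7 CPM. For DAM-gene-negative nuclei the value was 51.6 CPM (40.5 to 64.9). Lgals3 was at 89.4 CPM (48.9 to 150.1) and 396 CPM (325 to 478), and Ctsd at 319 CPM (237 to 421) and 1174 CPM (1049 to 1309), where the Itgax-only level was below the 571 CPM (533 to 612) of DAM-gene-negative nuclei. In the other direction, Cd74, the chaperone of MHC class II, was at 773 CPM (641 to 924) with Itgax only and 69.1 CPM (41.6 to 108) with Gpnmb only, and H2-Eb1, a chain of that complex, at 607 CPM (491 to 742) and 36.3 CPM (17.4 to 66.8). The saline libraries carried most of this. Itgax-only nuclei had 1213 CPM of Cd74 and 1075 CPM of H2-Eb1 with saline but 393 and 202 CPM with IL-27, where nuclei without a gate gene had 251 and 179 CPM, and IL-27 replicate 10 had no UMI of either gene in its 7 Itgax-only nuclei. Ccr2 was at 543 CPM (434 to 671) and 102 CPM (67.6 to 147), and Klra2, a lectin-like receptor, at 441 CPM (343 to 558) and 72.7 CPM (44.4 to 112).

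The 76 Igf1-only nuclei had 1147 CPM (1015 to 1291) of Ctsd, inside the interval of the Gpnmb-only nuclei, and 67.0 CPM (38.3 to 109) of Lgals3, below theirs. Their Lyz2 was at 113 CPM (74.5 to 164), against 618 CPM (528 to 718) with Gpnmb only. The 36 Spp1-only nuclei had the highest Apoe of the groups with over 30 nuclei, at 5218 CPM (4752 to 5718), together with 478 CPM (344 to 645) of Ccr2. The 203 nuclei with 2 or more gate genes had 538 CPM (483 to 598) of Fabp5 and 2021 CPM (1913 to 2133) of Ctsd.

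**Figure D4:**
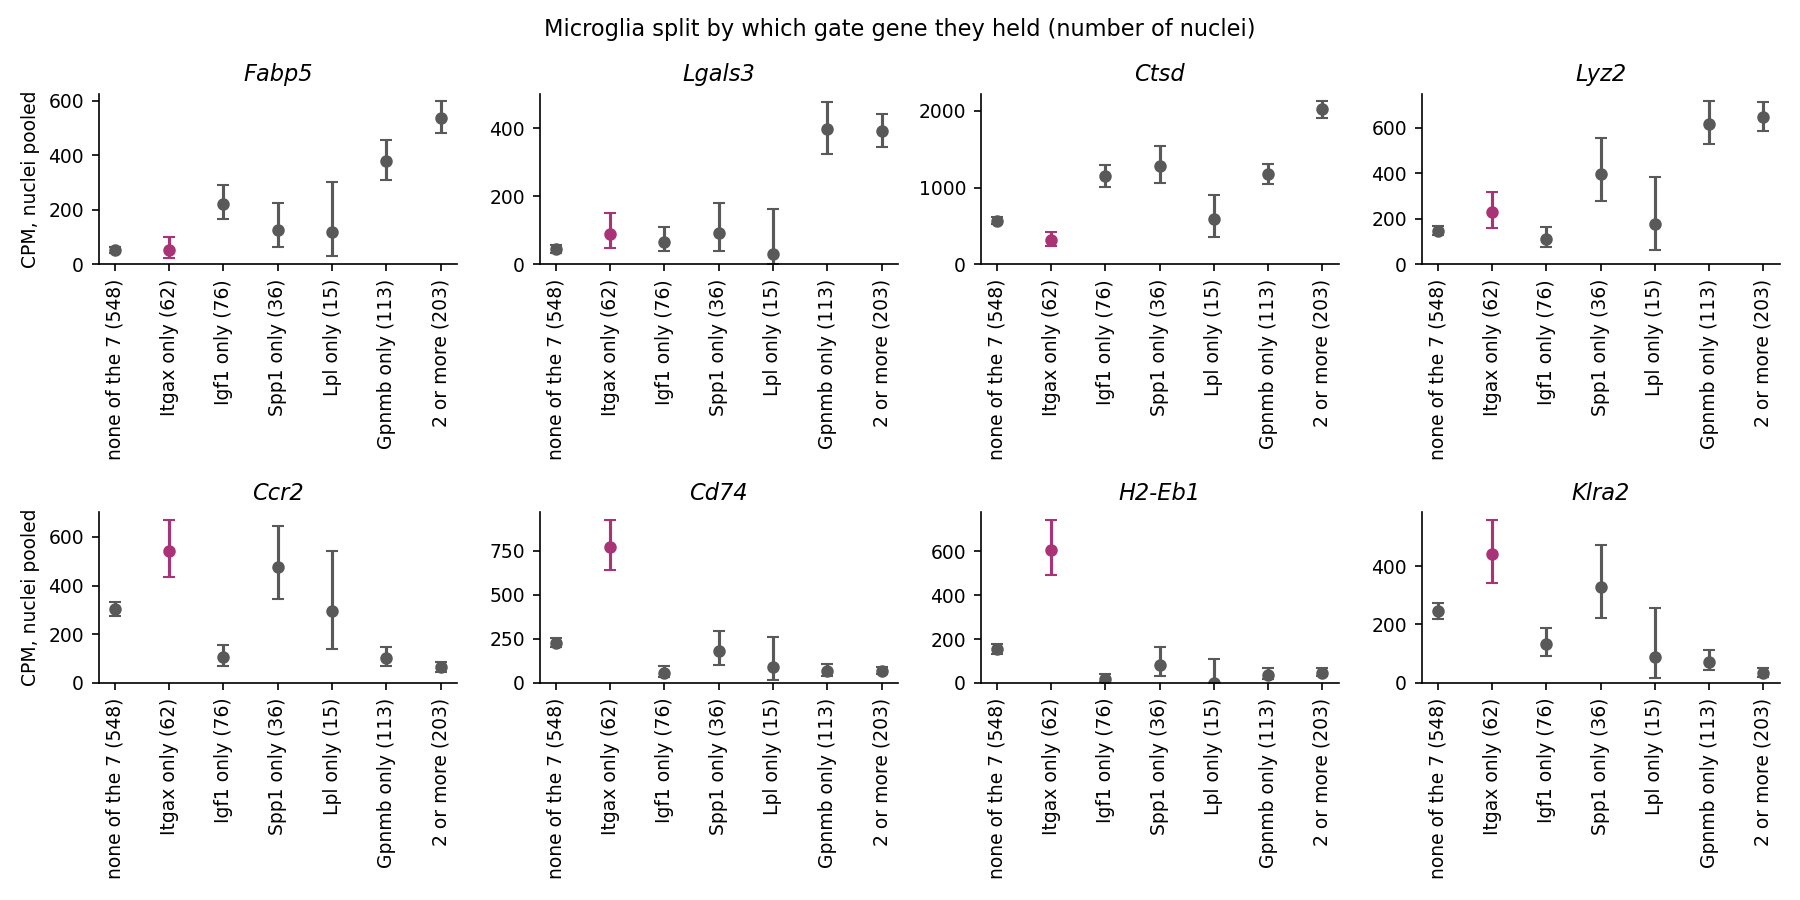
Each panel plots the pooled level of a gene (CPM, with 95% exact Poisson intervals) in microglia with none of the 7 gate genes, with 1 named gate gene only, or with 2 or more, and the number of nuclei is in parentheses. The Itgax-only nuclei (purple) sit with the nuclei lacking gate genes for Fabp5 (51.1 CPM) and above every other group for Cd74 (773 CPM) and H2-Eb1 (607 CPM), values pooled over treatments that for H2-Eb1 were 1075 CPM with saline and 202 CPM with IL-27.

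The second question of the design was whether 1 injection of IL-27 changed these nuclei 2 days later. Of 5307 genes tested in the DAM-gene-positive nuclei, edgeR called 0 (0.0%) higher and 0 lower at an adjusted p under 0.05. By unadjusted p under 0.05, 117 (2.2%) were higher and 102 (1.92%) lower, and 498 genes (9.38%) had no overlap between the 3 saline and the 3 IL-27 libraries. DESeq2 called 1 higher and 2 lower. None of the gate genes passed. Gpnmb was at 1065 ± 70.3 CPM with saline and 1237 ± 299 CPM with IL-27 (SD, n = 3 libraries each, log2FC 0.21, SE 0.19, edgeR adjusted p 0.999). The log2FC was -0.04 for Igf1 (SE 0.23), 0.17 for Spp1 (SE 0.33) and -0.34 for Itgax (SE 0.35). For Lpl it was 0.01 (SE 0.44), and for Atp6v0d2 -1.41 (SE 0.65). The share of microglia with a UMI of each gate gene overlapped between the groups for all 7 genes (exact permutation p from 0.3 to 1, Benjamini-Hochberg adjusted 0.933 to 1).

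None of the lists held a gene that passed. Of 30 DAM genes 14 were above 0 and 16 below, with a median log2FC of -0.02, and of 41 lysosomal genes 21 were above 0, with a median of 0.02. The 28 homeostatic genes had a median of -0.17 with 24 below 0, against a median of 0.00 over all genes tested. Zfhx3, a transcription factor of that list, lay at 754, 687 and 784 CPM with saline and 622, 378 and 540.5 CPM with IL-27, without overlap but with an edgeR adjusted p of 0.999. The 16 lipid-handling genes had a median of 0.21 with 13 above 0. The DAM genes Cybb, a subunit of the phagocyte oxidase, and Cd68 were higher in each IL-27 library than in any saline library, Cybb at 276, 297 and 214 CPM with saline and 323, 388 and 647 CPM with IL-27, and did not pass (edgeR adjusted p 0.999). The interferon-response genes, 42 tested, had 21 above and 21 below 0, and of the 9 genes of IL-27 signalling 4 were above 0. Cxcl10, a chemokine induced by interferons, was at 18.7, 56.9 and 0 CPM with saline and 101, 65.0 and 187 CPM with IL-27, without overlap (edgeR adjusted p 0.999). It passed without the filter on low counts (log2FC 1.92, edgeR adjusted p 0.00175).

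The genes with the smallest unadjusted p and no overlap between groups are given as values short of the threshold. Frmd5 was at 89.0, 207 and 129 CPM with saline and 291, 489.8 and 494 CPM with IL-27 (log2FC 1.55, SE 0.30, edgeR adjusted p 0.367), and Cdh8, a cadherin of neurons, at 14.1, 8.13 and 6.13 CPM with saline and 149, 48.7 and 60.1 CPM with IL-27 (log2FC 3.06, SE 0.63, edgeR adjusted p 0.415). In nuclei without identity genes Frmd5 lay at 1285 CPM and Cdh8 at 382 CPM, above all these values. Frmd5 passed with DESeq2 (adjusted p 0.0184), without Scrublet doublets (log2FC 3.18, adjusted p 0.00395) and without the filter on low counts (4.61e-06), and gave 0.53 (adjusted p 0.997) without nuclei rich in RNA of other cells, where Cdh8 was too low to test. Cdh8 passed without the filter only (edgeR adjusted p 1.43e-05). Ptafr, the receptor of platelet-activating factor, was at 37.5, 32.5 and 61.3 CPM with saline and 109, 130 and 86.7 CPM with IL-27 (log2FC 1.38, SE 0.33, edgeR adjusted p 0.651), and at 0.468 CPM in nuclei without identity genes. Hs6st3 was at 314, 695 and 539 CPM with saline and 206, 181 and 200.2 CPM with IL-27 (log2FC -1.42, SE 0.27, edgeR adjusted p 0.367). In nuclei without identity genes it lay at 644 CPM, above all of these but saline replicate 2. Its 485 UMIs were in 29 of the 510 nuclei, with up to 169 in a single nucleus, and the 171 of saline replicate 2 were in 3 nuclei. Hs6st3 passed with DESeq2 (adjusted p 0.0184) and without the filter (1.90e-05), and gave -0.68 (edgeR adjusted p 0.985) without Scrublet doublets.

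H2-Eb1 (ENSMUSG00000060586) and Cd74 (ENSMUSG00000024610), both of MHC class II, were lower in every IL-27 library than in any saline library. H2-Eb1 was at 206, 219 and 104 CPM in saline replicates 1, 2 and 6 and 24.2, 55.7 and 6.67 CPM in IL-27 replicates 4, 5 and 10 (log2FC -2.36, SE 0.44, edgeR adjusted p 0.367). Cd74 was at 267, 276 and 129 CPM with saline and 76.7, 99.8 and 53.4 CPM with IL-27 (log2FC -1.50, SE 0.32, edgeR adjusted p 0.465). H2-Aa (108, 248 and 104 CPM with saline and 56.5, 48.7 and 26.7 CPM with IL-27) and H2-Ab1 (159, 138 and 110.3 CPM with saline and 36.3, 78.9 and 13.3 CPM with IL-27) lay in the same order. In the DAM-gene-negative nuclei H2-Eb1 was at 92.3, 106 and 203 CPM with saline and 158, 210 and 159 CPM with IL-27, with overlap, and the difference between the 2 IL-27 effects was -2.92 (edgeR adjusted p 0.0845), for Cd74 -1.81 (adjusted p 0.111). That difference passed for H2-Eb1 without saline replicate 6 (-3.53, edgeR adjusted p 0.00907) and without IL-27 replicate 10 (-2.63, 0.0282), for Cd74 without saline replicate 6 (-2.17, 0.0157), and for both without the filter on low counts. Within the DAM-gene-positive nuclei, the IL-27 effect was fitted under 17 alternative settings. H2-Eb1 passed with DESeq2 (adjusted p 0.0184), without Scrublet doublets (0.0400), with outlier nuclei left out (0.0401), without saline replicate 6 (0.0459) and without the filter on low counts (3.83e-08), and Cd74 without saline replicate 6 (0.0439) and without the filter (4.30e-04). In the remaining settings neither gene passed. H2-Aa and H2-Ab1 passed without the filter (edgeR adjusted p 2.55e-04 and 0.0127). These values rest on few nuclei: 45 of the 510 held an H2-Eb1 UMI, and 95 of the 146 UMIs (65.1%) were in 20 nuclei with Itgax as their only gate gene. In those Itgax-only nuclei H2-Eb1 was at 858, 1491 and 1094 CPM with saline and 111, 305 and 0 CPM with IL-27, and in the other DAM-gene-positive nuclei at 52.1, 102 and 32.8 CPM with saline and 13.6, 26.0 and 7.20 CPM with IL-27, again with every IL-27 library below every saline library. In those other nuclei H2-Aa overlapped, at 23.2, 138 and 26.3 CPM with saline and 31.7, 23.4 and 28.8 CPM with IL-27. Cd74 was there at 75.3, 160 and 59.1 CPM with saline and 36.2, 54.6 and 57.6 CPM with IL-27, nearly touching. H2-Ab1 was at 34.7, 79.9 and 59.1 CPM with saline and 22.7, 15.6 and 14.4 CPM with IL-27, without overlap. Mrc1, a marker of other macrophages, was lower with IL-27 as well, at 65.6, 60.9 and 135 CPM with saline and 12.1, 4.64 and 33.4 CPM with IL-27 (edgeR adjusted p 0.465, and 1.29e-04 without the filter). The part of the mix of macrophages in these values was not tested.

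**Figure D5:**
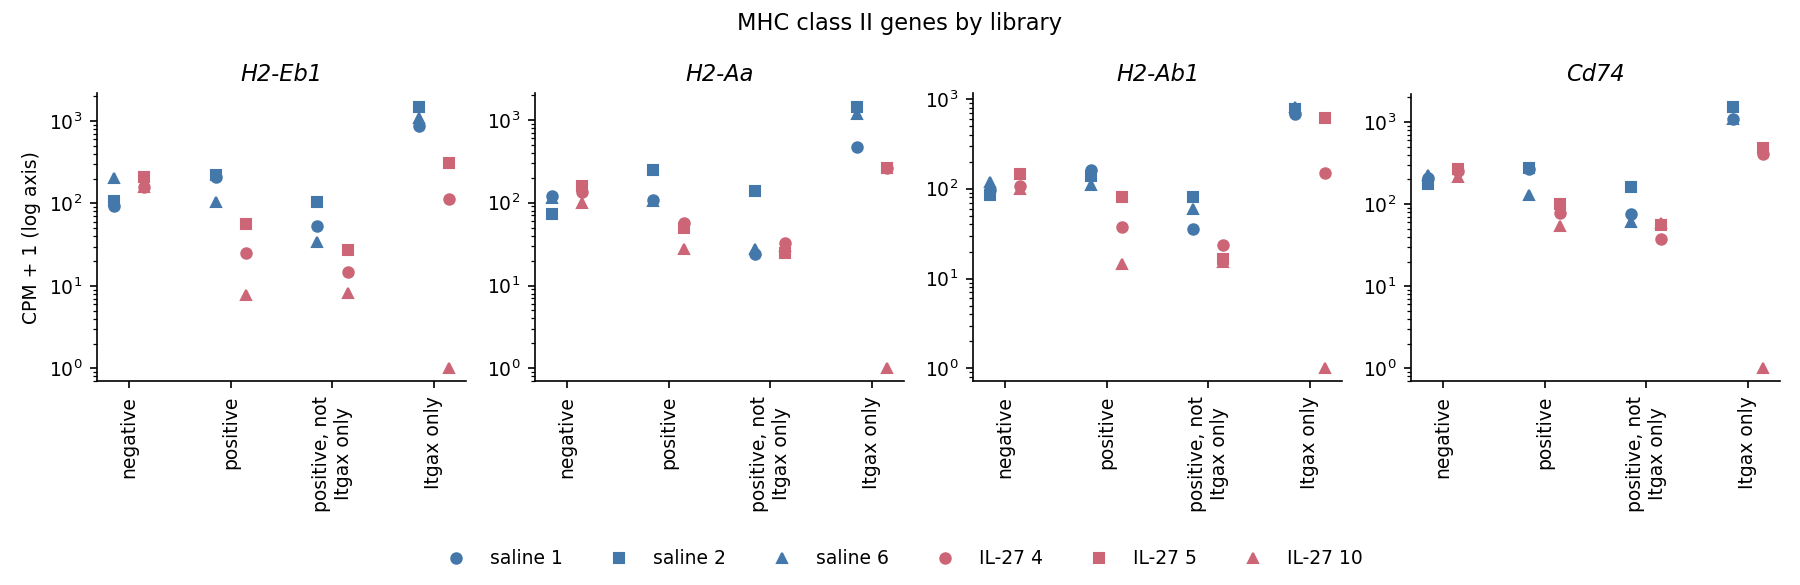
Each panel plots an MHC class II gene (CPM + 1, log axis) in DAM-gene-negative nuclei, in all DAM-gene-positive nuclei, in those that are not Itgax-only, and in Itgax-only nuclei, with 1 point per library, saline in blue and IL-27 in red. For H2-Eb1 the saline points of DAM-gene-positive nuclei (104 to 219 CPM) lie above the IL-27 points (6.67 to 55.7 CPM), while in DAM-gene-negative nuclei the groups overlap.

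In the DAM-gene-negative nuclei edgeR called 0 of 5659 genes in either direction (by unadjusted p under 0.05, 69, or 1.22%, were higher and 133, or 2.35%, lower). The test of the difference between the IL-27 effects in the 2 sets of microglia called 2 of 6489 genes (0.0308%), 1 in each direction (0.0154% each). Kcnd2, a potassium channel gene of neurons, gave 5.85 (edgeR adjusted p 0.0473), and its level in DAM-gene-positive nuclei was 28.1, 12.2 and 12.3 CPM with saline and 105, 20.9 and 1308 CPM with IL-27, highest in IL-27 replicate 10. In DAM-gene-negative nuclei it was at 259, 16.9 and 152 CPM with saline and 7.50, 33.3 and 61.2 CPM with IL-27. Pcsk6, a protease, gave -6.24 (edgeR adjusted p 0.0243), with 28.1, 175 and 6.13 CPM with saline and 0, 2.32 and 0 CPM with IL-27 in DAM-gene-positive nuclei, highest in saline replicate 2. In DAM-gene-negative nuclei it was at 11.1, 110.0 and 0 CPM with saline and 45.0, 26.7 and 245 CPM with IL-27, highest in IL-27 replicate 10.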

How the data were processed

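Nuclei of frozen rd10 retinas were sequenced by the authors with Chromium single-nucleus 3′ RNA-seq, 3 libraries per group. The deposited matrices hold UMI counts per gene and nucleus, not normalized, made by the authors with Cell Ranger 9.0.1 (the file headers name 8.0.1) against the 10x mouse reference, whose build is not given in the sources used here. Seurat 5.2.1 is named for their later steps, and their doublet calls and cell types were not used here. The members and gene lists were chosen with earlier results of these data known.

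Of the called barcodes, 8968 to 9965 per library, 8868 to 9885 passed the limits on UMIs, genes and mitochondrial UMIs. Counts were summed per library over DAM-gene-positive and over DAM-gene-negative nuclei and tested with edgeR 4.0.16 (quasi-likelihood, TMM, filterByExpr with a minimum count of 10, Benjamini-Hochberg threshold 0.05), with the library as a block for the comparison of the 2 sets. DESeq2 1.42.0 was an alternative, and the script was tested on simulated counts. Scripts ran in R 4.3.3 and Python 3.11.15 with scanpy 1.11.5, whose Scrublet called doublets at an expected 8%. Shares were compared by exact permutation over libraries. RNA of other cells was the UMIs on 768 genes at least 3 times higher, and at 50 CPM or more, in nuclei without identity genes. Fold changes compare CPM of summed counts, and depth limits genes of few UMIs. Strand and overlapping genes could not be checked in the matrices. Named genes were the gate genes, list genes past the threshold, and, per direction, the 15 smallest adjusted p that moved one way in all 6 libraries. For IL-27 they were the gate genes and, in each direction, at most 3 genes without overlap that had the smallest unadjusted p. Genes named beyond this rule were chosen after their values were seen. Unnamed gene models were counted but not named.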

Additional observations from a re-analysis of the deposited data

Results flagged for a closer look

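Of 76 values tested over the 6 libraries, 6 had a library whose gap to the others was large against the whole range, where chance alone gives about 1 in 20, or 3.8. For the log2 difference between DAM-gene-positive and DAM-gene-negative nuclei (pseudocount 1), these were Myof in saline replicate 6, at 2.74 against 1.87 to 2.16 in the others, Iqgap1 in saline replicate 6, at 0.85 against 1.19 to 1.38, and Ctsz in IL-27 replicate 10, at 1.29 against 0.47 to 0.77. For levels in DAM-gene-positive nuclei they were Itgax in saline replicate 1, at 112 CPM, Gpnmb in IL-27 replicate 5, at 1560 CPM, and Spp1 in IL-27 replicate 10, at 567 CPM. All of these levels belong to the gate genes that chose the nuclei.

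The effect of IL-27 differed between DAM-gene-positive and DAM-gene-negative nuclei for 2 genes. For Kcnd2 the difference was 5.85 on the log2 scale (SE 0.94, edgeR adjusted p 0.0473), and 196 of its UMIs came from the DAM-gene-positive nuclei of IL-27 replicate 10. For Pcsk6 it was -6.24 (SE 0.89, edgeR adjusted p 0.0243), with 43 UMIs in the DAM-gene-positive nuclei of saline replicate 2. Of the 6 fits that left out 1 library, 2 still called Kcnd2 (those lacking saline replicate 2 and IL-27 replicate 5), and the fit lacking IL-27 replicate 10 did not. Pcsk6 was still called in 3 (those lacking saline replicate 6, IL-27 replicate 5 and IL-27 replicate 10), and the fit lacking saline replicate 2 did not call it. Over all fits that left out 1 library, 0 to 20 genes were called higher and 0 to 3 lower.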

How the results depend on the processing

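For genes higher and lower in DAM-gene-positive nuclei, 216 and 190 as reported, DESeq2 gave 99 and 71. The lower count was 66 without Scrublet doublets, 379 without the filter on low counts and 78 with no replicate block. Leaving out 1 library gave 140 (without IL-27 replicate 5) to 211 higher and 109 (without saline replicate 1, and 116 without saline replicate 2) to 192 lower. Of 67 genes named for this comparison, 38 kept their call in every alternative that tested them, 28 lost it in at least 1, and Dlg2 reversed, to 0.16, without nuclei rich in RNA of other cells. For IL-27 against saline in DAM-gene-positive nuclei, 0 higher and 0 lower as reported, DESeq2 gave 1 and 2, leaving out Scrublet doublets 13 and 1, no filter 34 and 20, and leaving out outlier nuclei 0 and 1. Leaving out 1 library gave 0 to 2 higher and 0 to 3 lower, the highest of each without saline replicate 6. In DAM-gene-negative nuclei no filter gave 13 and 27, and leaving out 1 library 0 to 0 higher and 0 to 1 lower, the 1 without IL-27 replicate 5 or 10. For the difference of the IL-27 effects, 1 and 1 as reported, no filter gave 49 and 22, and leaving out 1 library 0 to 20 (20 without IL-27 replicate 10) and 0 to 3. Of the gate genes tested one at a time 3 rose, 5 without the filter and 3 in each fit without 1 library. The share difference of 2.13 points ranged from -0.974 (without IL-27 replicate 5) to 5.60 (without IL-27 replicate 4). Among gate genes under IL-27, none of which passed in any of these, Spp1 turned to -0.054 with the gate of Itgax, Gpnmb, Atp6v0d2 or Cst7 and to -0.35 without IL-27 replicate 10 (-0.351 to 0.435 over the fits without 1 library), Itgax to 0.047 without saline replicate 1 (-0.541 to 0.0471), and Lpl to -0.010 with the gate without Itgax and to -0.22, -0.16 and -0.23 without IL-27 replicate 4, saline replicate 1 and saline replicate 6 (-0.227 to 0.578). Igf1 turned to 0.12 with at least 2 gate genes, to 0.000167 with the gate of 4 genes, to 0.039 without outlier nuclei, to 0.13 without IL-27 replicate 10 and to 0.11 without saline replicate 6 (-0.243 to 0.129). Apart from the filter and the fits with fewer nuclei or libraries, the cause was not tested. The gates of 4 and of 6 genes and the limits on RNA of other cells and on immune markers were added after seeing the data. The replicate numbers are not shared between the treatments. No paired analysis was possible because saline replicates 1, 2 and 6 and IL-27 replicates 4, 5 and 10 share no number. Genes of few UMIs, such as Il27ra, cannot be compared at this depth.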
